A study of Drosophila melanogaster with 3 samples.

Results

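The regions described here are the 455 summits of Nautilus (Nau) binding outside protein-coding genes and away from their starts, in whole Drosophila melanogaster embryos. Anti-GFP chromatin immunoprecipitation and sequencing was done in 3 biological replicates of 1 group. The embryos were of both sexes, were collected between 4 and 24 h, and came from a transgenic line, nau-GFP, in which GFP is fused to the C terminus of nau and which all 3 replicates share. Whether the line keeps an untagged copy of nau, and what drives the fusion, is not given in the sources used here. With 1 group, every comparison is between places in the genome. The chromatin of all embryonic cell types was mixed, so a low signal in many cells and a high signal in few cells cannot be told apart. Summits were those of the authors' final list, which was cut by IDR, the irreproducible discovery rate, a measure of agreement between replicates. A summit was kept when it was more than 2000 bp from every protein-coding transcription start site (TSS) and outside every protein-coding gene body. No distance from the other end of a gene was set, so a summit may lie close to it. The 455 summits were 12.1% of the list (95% Wilson interval 11.1 to 13.2%), and the list held 3312 other summits. By the same rule, the equally long sets of strongest regions of the replicates held 433, 415 and 418 such summits, or 11.2 ± 0.256% (SD, n = 3). Intervals cover counting error only, and the number of reads behind a region is unknown here.

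Nautilus is the fly member of the MyoD family of basic helix-loop-helix (bHLH) transcription factors, which bind E-boxes, the words CANNTG, as dimers. In fly embryos nau is known for its role in setting the identity of a subset of muscle founder cells. Sequence far from promoters often holds enhancers, which act on promoters over distance, and the nearest gene is not always the gene an enhancer serves. A binding summit in such sequence is a place of enrichment, not a tested enhancer.

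Windows of 201 bases around 5 of these summits are given as examples, read from the RefSeq Release 6 genome (dm6), forward strand, with every CANNTG in capitals. The opening 3 are among the strongest intergenic summits that hold CAGCTG, a palindromic E-box, and the closing 2 are the strongest intergenic summits of all, which hold none. CAGCTG was at 48 of the 455 summits, so the opening 3 are not typical. The windows are chr3L:786924-787124 and chr3L:786063-786263 between hng3 and CG13898, chr2L:14476777-14476977 between CG15283 and noc, chrX:12751231-12751431 between CG4004 and Paics, and chr2L:14023983-14024183 between NimC3 and hll.
hng3 to CG13898, rank 405: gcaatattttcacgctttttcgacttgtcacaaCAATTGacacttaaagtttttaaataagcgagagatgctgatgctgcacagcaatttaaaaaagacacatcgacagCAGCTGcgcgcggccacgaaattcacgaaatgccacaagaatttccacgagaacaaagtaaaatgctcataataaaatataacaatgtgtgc
hng3 to CG13898, rank 429: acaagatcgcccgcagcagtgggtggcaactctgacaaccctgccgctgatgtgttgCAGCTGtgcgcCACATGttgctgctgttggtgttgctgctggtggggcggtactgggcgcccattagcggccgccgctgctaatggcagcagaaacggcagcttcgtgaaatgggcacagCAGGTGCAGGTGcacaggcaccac
CG15283 to noc, rank 512: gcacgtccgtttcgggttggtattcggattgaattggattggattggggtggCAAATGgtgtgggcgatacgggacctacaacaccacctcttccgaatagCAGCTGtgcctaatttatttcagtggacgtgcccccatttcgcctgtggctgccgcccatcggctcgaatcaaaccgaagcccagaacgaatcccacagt
CG4004 to Paics, rank 4: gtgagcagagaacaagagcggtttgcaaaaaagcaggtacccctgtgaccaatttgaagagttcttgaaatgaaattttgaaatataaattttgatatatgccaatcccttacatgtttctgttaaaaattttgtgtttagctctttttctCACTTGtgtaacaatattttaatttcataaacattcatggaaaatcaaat
NimC3 to hll, rank 5: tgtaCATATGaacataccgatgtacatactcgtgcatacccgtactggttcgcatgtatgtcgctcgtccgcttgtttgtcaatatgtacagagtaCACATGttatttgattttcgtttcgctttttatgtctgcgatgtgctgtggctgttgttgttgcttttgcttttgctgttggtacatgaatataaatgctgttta
Ranks are by the authors' signal value in the IDR list, with 1 the strongest. In the CG15283 to noc window the fourth base of CAGCTG lay 4 bp after the summit on the genome's forward strand, and in the rank 405 window 12 bp after it. The windows of rank 4 and rank 5 held 1 and 2 E-boxes of other kinds.

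The strongest intergenic summits ranked with the strongest of the whole list. The highest, on X at 12751331 between CG4004 and Paics (an enzyme of purine synthesis), had a signal value of 2204 in the pooled list and 723, 595 and 784 in replicates 1, 2 and 3. Its ranks in those replicates were 4, 8 and 6, so all 3 placed it near the top. This summit lay inside lncRNA:Vinr (FBgn0287633, X:12749894-12752350), a long non-coding RNA gene, 1437 bp from its start. The summit between NimC3, of the Nimrod family of phagocytosis receptors, and hll, on 2L at 14024083, had a pooled value of 2132 and replicate values of 721, 599 and 833. It lay 16 bp from the annotated start of lncRNA:CR31840 (FBgn0051840, 2L:14023722-14024099). The rank 20 summit, on 3R at 16222480 between mtSSB, a mitochondrial single-stranded DNA-binding protein, and tara (taranis), had a pooled value of 1452 and replicate values of 420, 424 and 612.

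The rank 12 summit lay on 2R at 13035276 between Su(z)2 and CG13323, and a further one at 12985206, of rank 77, lay beside Psc. Psc and Su(z)2 are related genes of the Polycomb group, which keeps chromatin silent. The rank 12 summit had a pooled signal value of 1799 and was 11980 bp from the nearest TSS, that of CG13323. The rank 77 summit had 1037 and was 4212 bp from the TSS of Psc. The rank 48 summit, between Cyt-c1L and eEF1gamma (a subunit of a translation elongation factor), was 125 bp from the start of lncRNA:CR31044 and 1148 bp from mir-279. The rank 56 summit lay in an interval of 1.34 kb between blw, which encodes the alpha subunit of mitochondrial ATP synthase, and CycB (cyclin B), and its pooled signal value was 1105. Other strong summits lay beside genes of known transcription factors. They were 813 between Asator and zfh2, a zinc finger homeodomain factor, 803 between CG9922 and foxo, a forkhead factor of insulin signalling, 796 between betaTub60D and slbo, the fly C/EBP, and 728 between slp1 and slp2, forkhead factors of segmentation and mesoderm. The remaining summits of the 20 strongest were bordered by COX7AL2 and CG31668, CG15615 and CG5550, CG11349 and CG7465, NijA and CG43245, SIFaR and aus, RFeSP and chinmo with 3 summits, and CG4004 and Paics with another summit of 872. Of these 20, 19 were matched by a summit within 100 bp among the equally many strongest regions of all 3 replicates. The exception, between CG11349 and CG7465, had values of 293 and 246 in replicates 1 and 2 and no summit within 100 bp in replicate 3.

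**Figure D1:**
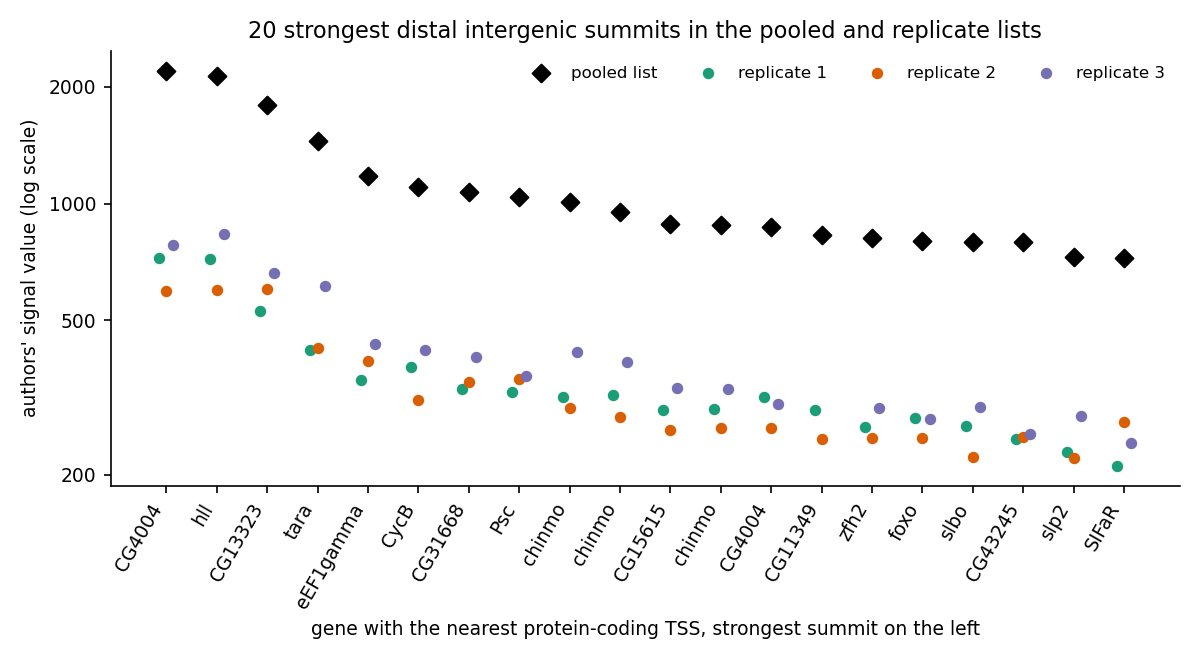
Signal value (log scale) of the 20 strongest distal intergenic summits in the pooled list (diamonds) and in each of the 3 replicate lists (circles), by the gene with the nearest protein-coding TSS. The pooled value lies above the replicate values at every summit, and the CG11349 summit has no point for replicate 3.

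Over all 455 intergenic summits the pooled signal value ran between 166 and 2204, with a median of 242. The median of the 1053 distal summits inside genes, which share the distance rule, was 238. Of the intergenic summits, 222 (48.8%, 95% interval 44.2 to 53.4%) were in the stronger part of the list, against 497 of 1053 in-gene summits (47.2%, 44.2 to 50.2%), a ratio of 1.03 that did not pass (Fisher's exact test over summits, two-sided, p = 0.575). In the replicates' own lists the shares were 49.0 ± 1.10% for intergenic summits and 47.1 ± 1.84% for in-gene summits (SD, n = 3). The ratio was 0.997 with a distance of 5000 bp and 0.972 without replicate 3, neither past the threshold of 0.05. Here and below, leaving a replicate out means keeping the IDR summits matched in both other replicates. The list and its ranks still came from all 3 replicates pooled. Summits are positions in 1 genome rather than repeats of the experiment, so a p over them measures counting error.

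A match in all 3 replicates, meaning a summit within 100 bp among the equally many strongest regions of each, was found for 236 intergenic summits (51.9%, 47.3 to 56.4%). The share over the whole IDR list was 51.5%, so the intergenic summits stood at the background. In-gene summits reached 532 of 1053 (50.5%, 47.5 to 53.5%; ratio 1.03, Fisher's exact test p = 0.654). A further 117 intergenic summits were matched in 2 replicates, 89 in 1 and 13 in none. Replicates 1, 2 and 3 matched 345, 345 and 341 of them. Within the full lists of 30000 candidates, 400 of the 455 (87.9%) had a summit in all 3 replicates and 1 had none. That one, on 3R at 16222191, was 289 bp from the far stronger tara summit. By strength, 96.1% of the strongest 152 intergenic summits were matched in all 3 replicates, 55.9% of the middle 152 and 3.31% of the weakest 151. Pooled signal is built from these replicates, so that gradient is a description.

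The distance rule split a continuous range. The 20 summits just inside it, 2002 to 2152 bp from a TSS, had signal values of 173 to 829 (median 282). The 20 intergenic summits just outside it, at 1802 to 1966 bp, had values of 169 to 776 (median 247). The median distance of the 455 was 6941 bp, 164 lay beyond 10000 bp, 39 beyond 20000 bp and 6 beyond 50000 bp. The farthest, on 3L at 10341862 between Or67d, an odorant receptor gene, and CG12362, was 68658 bp from a TSS. It had a signal value of 219 and ranked 2623, 2694 and 2680 in the replicates.

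Intergenic summits were unevenly spread. They fell in 249 intergenic intervals, and 165 of these held 1 summit. At the other end, 14 intervals held 5 or more, 113 summits in all (24.8%), in 627 kb. The sequence that meets the rule, the eligible sequence, came to 33.9 Mb. The fullest, between RFeSP, the Rieske iron-sulfur protein of the respiratory chain, and chinmo, a zinc finger factor known for neuronal temporal identity, held 14 in 37.1 kb of 2L. The replicates' own lists placed 12, 7 and 8 there. Within this interval 4 summits stood above the others. The summits 12392, 7771, 2468 and 18437 bp from the chinmo TSS had pooled values of 1010, 883, 953 and 503, and the other 10 had values of 167 to 229. At the strongest of them the replicate values were 317, 297 and 415.

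The interval between hng3 and CG13898 on 3L held 12 summits in 47.9 kb, and the replicates placed 15, 11 and 15 there. Its strongest were the CAGCTG windows shown above at 787024 and 786163, with values of 550 and 524. Another pair of intervals on 3L, CG6168 to CG6163 and CG44362 to CG7560, held 8 summits each, with highest values of 648 and 551, and the replicates placed 8, 8 and 8 between CG6168 and CG6163 and 8, 8 and 9 between CG44362 and CG7560. A further interval on 3L, the 21.1 kb between Ids and sty (sprouty, an inhibitor of receptor tyrosine kinase signalling), tied with them at 8 summits. Its highest value was 403, and the replicates placed 7, 8 and 5 there.

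**Figure D2:**
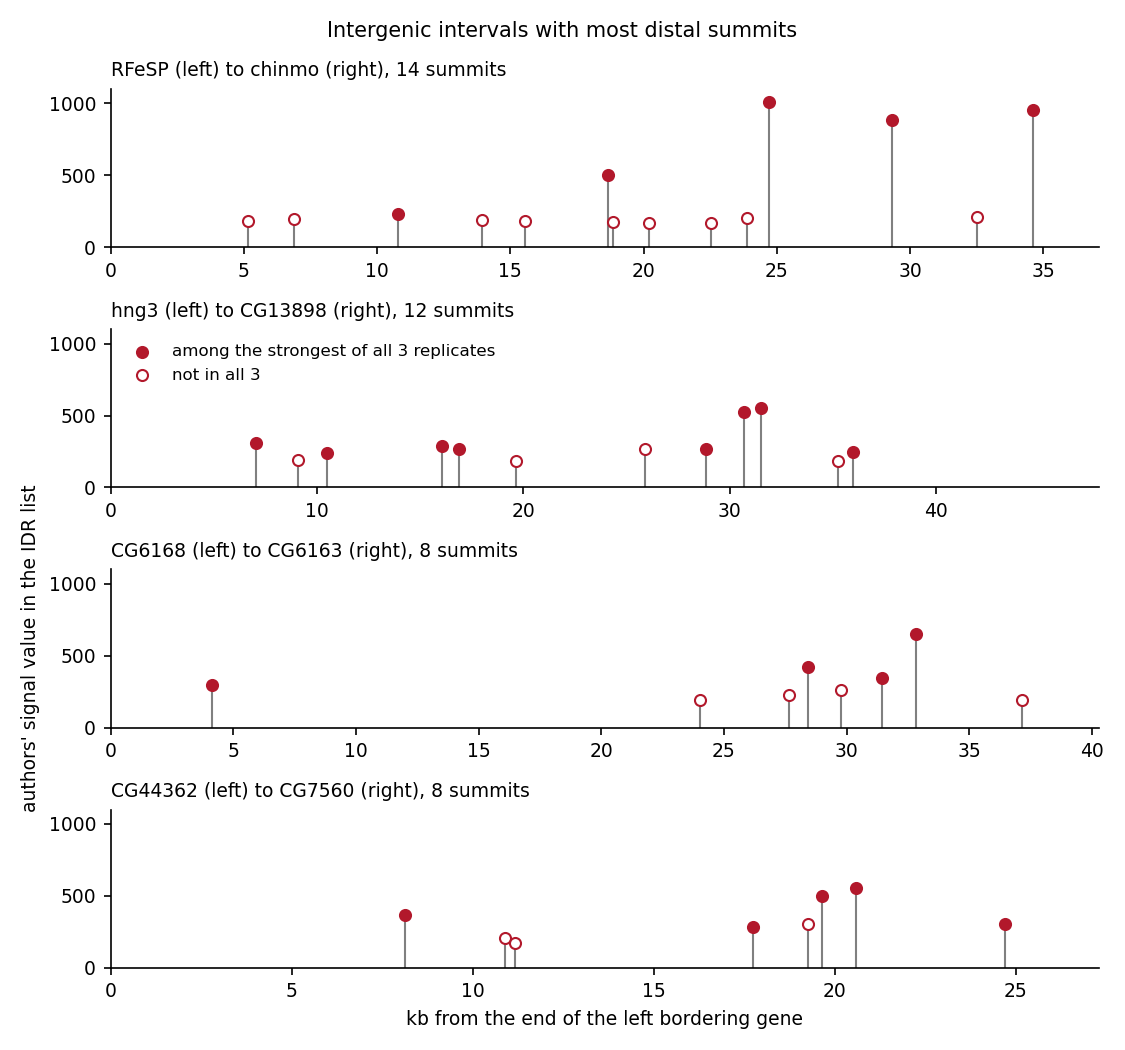
Distal intergenic summits in 4 of the intervals with most of them, by distance in kb from the end of the left bordering gene and by signal value in the IDR list. Filled points were matched among the strongest regions of all 3 replicates, open points were not; the chinmo interval holds 3 summits above 800, and those of the other 3 intervals stay below 650.

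Arm 3L held 156 of the 455 (34.3%), and arm 2L held 100. Arms 3R and 2R had 80 and 71, X had 42 and chromosome 4 had 6. Per Mb of eligible sequence, the IDR list had 18.5 summits for 3L, against 13.4 for all arms. Densities were 16.0 per Mb for 2L, 11.5 for 3R, 10.4 for 2R and 7.99 for X. The replicates had 18.0 ± 1.14 per Mb for 3L, 14.1 ± 0.332 for 2L, 10.9 ± 0.682 for 3R and 7.48 ± 0.957 for X (SD, n = 3), and 8.51, 9.25 and 9.25 for 2R. Every replicate had a higher density on 3L than on 2L, and on 2L than on 3R, 2R or X. Chromosome 4, at 25.1 per Mb, rests on 6 summits in 0.239 Mb. The other 3312 summits were spread more evenly over the 5 large arms, between 30.9 and 36.9 per Mb of the remaining sequence. Of the 14 crowded intervals, 8 belonged to 3L, 4 to 2L and 2 to 3R. Outside them, the IDR list had 11.1 summits per Mb for 3L, 11.0 for 2L and 10.4 for 2R. It had 9.64 for 3R and 7.99 for X, so 3L and 2L then stood close to 2R. Leaving these intervals out was chosen after seeing the data.

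**Figure D3:**
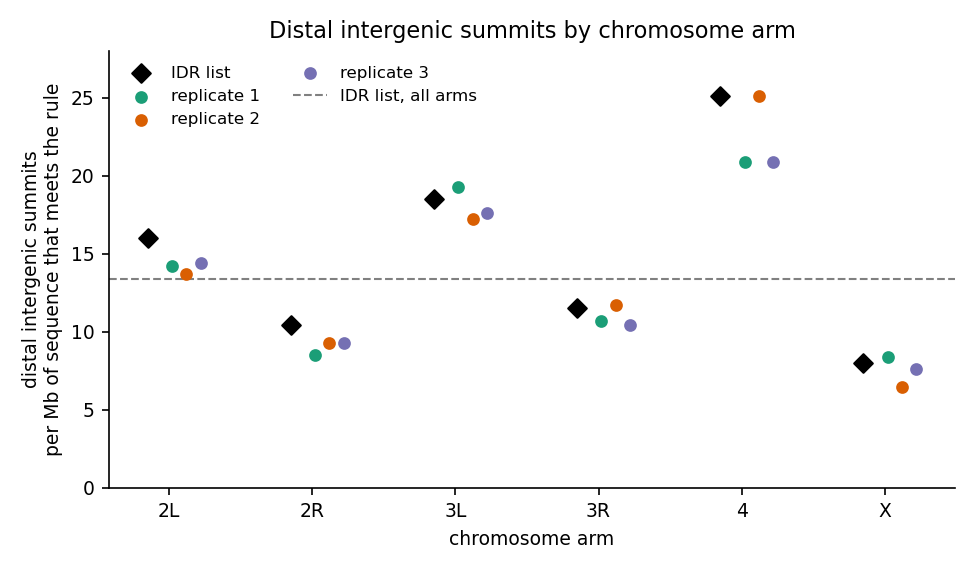
Distal intergenic summits per Mb of sequence that meets the rule on each chromosome arm, in the IDR list (diamonds) and in each replicate's own strongest regions (circles), with the IDR value over all arms as a dashed line. Points for 3L lie between 17.2 and 19.3 and points for X between 6.47 and 8.37; chromosome 4 has 6 summits.

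Another IDR summit lay within 5 kb of 250 intergenic summits (54.9%), against 645 of the in-gene summits (61.3%). Within 1000 bp the shares were 15.4% and 16.0%. Spacing depends on where the rule lets a summit lie and was not tested. The share of regions that met the rule grew with falling signal. It was 12.1% in the IDR list, 14.6% in the next equal bin of the pooled candidate list and 26.7% in the weakest bin. For scale, eligible sequence was 33.9 Mb and the remaining sequence 99.7 Mb. The IDR list had 13.4 summits per Mb in the former and 33.2 in the latter. Distal regions inside genes took 28% of the IDR list and 41.6% of the weakest bin.

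**Figure D4:**
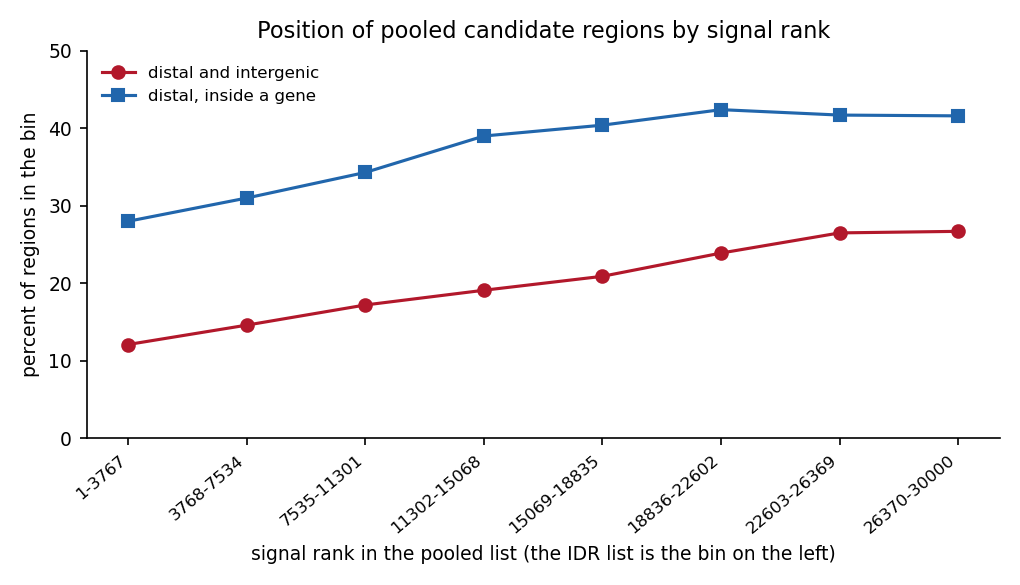
Percent of pooled candidate regions that were distal and intergenic, or distal and inside a gene, in bins of signal rank with the strongest on the left. Intergenic regions climb in every bin and end at 26.7%; in-gene regions peak at 42.4% and end at 41.6%.

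Intergenic here means outside protein-coding genes, and 71 of the 455 summits (15.6%, 12.6 to 19.2%) lay in the body of a non-coding gene, against 7.07% of the eligible bases. Long non-coding RNA genes held 68 of them. A start of a non-coding gene lay within 500 bp of 52 summits (11.4%), and the share of eligible bases that close was not computed. Among the 50 strongest intergenic summits, 11 were inside a non-coding gene. They included one at 3R:21297689 in lncRNA:Hsromega (FBgn0001234), the heat-shock RNA omega, 1562 bp from its start, with a signal value of 723 and replicate values of 211, 274 and 241. Those at 24329576 and 24327734 on 2R both lay in lncRNA:CR44810 beside slbo. In the body of an annotated transposable element lay 2 summits (0.440%), against 11.6% of eligible bases. How well reads map to such repeats was not tested. Summits within 2000 bp of a microRNA gene included those at mir-279 (signal value 1178), mir-282 (677), mir-14 (317), mir-8 (286), mir-277 (261), mir-276a (212), the mir-2c, mir-13a and mir-13b-1 group (201) and mir-34 (187). The summit at mir-34, 183 bp away, was the closest of these. No background share was computed for closeness to microRNA genes, so these are descriptions.

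Among protein-coding genes, 283 (2.03%) had the TSS nearest to at least 1 intergenic summit, and 461 (3.31%) bordered an interval that held one. Genes differ in how much eligible sequence surrounds them, and only 3883 of 13945 had any eligible base nearest to their TSS, of which 7.29% had a summit. The 15 gene lists hold 362 genes, of which 195 had eligible bases and 25 (12.8% of the 195) had a summit. Per Mb of that sequence the lists had 16.7 summits, against 13.4 over all genes, and 16.4 ± 1.41 against 12.4 ± 0.284 in the replicates (SD, n = 3). These shares are descriptions, and the lists were chosen with earlier results known.

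Of 20 early mesoderm factors, 5 were nearest to an intergenic summit (25%) and 18 had eligible sequence. They were slp2 at 728, the T-box factor Doc2 at 327, the T-box factor mid at 218, the GATA factor srp at 218 and the LIM-homeodomain factor tup at 215. In all 3 replicates slp2 ranked high, at 243, 232 and 205, whereas tup ranked 4882, 3473 and 2001. The srp summit ranked 2300 and 1861 in replicates 1 and 2 and had no summit within 100 bp in replicate 3. Of 23 muscle identity factors, 3 were nearest to a summit (13.0%): mirr of the Iroquois complex, with 3 summits of up to 223, and again mid and tup. The replicates' own lists placed 3, 0 and 3 summits in the interval between caup and mirr. Of 31 sarcomere genes, 2 had a summit (6.45%), the actins Act87E at 302 and Act57B at 255. Eligible sequence surrounded 17 of the muscle identity factors and 13 of the sarcomere genes. Per Mb of eligible sequence, the replicates had 24.5 ± 9.01 summits for early mesoderm factors and 29.3 ± 6.34 for sarcomere genes. Over all genes they had 12.4 ± 0.284 (SD, n = 3). Muscle identity factors had between 11.2 and 18.7, on both sides of the all-gene value. In the IDR list these 3 lists had 5, 2 and 5 summits. None of 17 myoblast fusion genes and none of 22 muscle attachment genes was nearest to a summit, and only 5 and 7 of these had eligible sequence, 8.84 and 12.6 kb in all. Around the muscle attachment genes the replicates' own lists nonetheless gave 79.4, 158.8 and 79.4 summits per Mb of that short sequence. In 12.6 kb these densities rest on very few summits.

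Of 26 gap and pair-rule genes, 5 had a summit (19.2%). The bHLH repressor gene hry (hairy) had 3, with values of up to 395, and ems, a head gap gene, had 3 of up to 324. The others were wg (Wingless, a Wnt ligand) at 227, slp2 and oc (orthodenticle) at 181. The 63 homeodomain factors beyond Hox had 10 such genes (15.9%), led by zfh2 at 813, ems, the POU factor vvl at 278 and the LIM-homeodomain factor Awh at 238. No Hox gene was nearest to a summit, but Antp, Ubx and abd-A bordered intervals with one. The strongest of those, with 422 and replicate ranks of 1040, 737 and 596, lay between Glut3 and abd-A, 10549 bp from the Glut3 TSS. Of 13 gut and endoderm factors, 3 had a summit (23.1%), the forkhead factor fkh at 289, srp and GATAe at 197. The 16 trachea and salivary factors had 2 (12.5%), fkh and vvl. Of 30 signalling ligands, 3 had one, the Notch ligand Ser at 276, wg, and the JAK/STAT ligand upd1 at 222. Eligible sequence surrounded 24 gap and pair-rule genes, 55 homeodomain factors and 8 Hox genes. It surrounded 10 gut, 11 trachea and salivary and 21 ligand genes. Per Mb of it, the replicates had 22.2 ± 8.55, 15.1 ± 3.93 and 5.64 ± 4.89 summits for the former lists. The latter had 69.0 ± 9.19, 24.1 ± 5.22 and 12.6 in each replicate, against 12.4 ± 0.284 over all genes (SD, n = 3). The gut value rests on few summits, as the IDR list had 5 in 62.8 kb, with 3 of them nearest to fkh. The same 3 are among the 5 of the trachea and salivary list.

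Of 49 bHLH genes, 2 were nearest to a summit (4.08%), hry and Myc at 261, with 3 summits each. The strongest Myc summit ranked 1402, 2216 and 12912 in the replicates. The neural fate factors had 1 of 24 (4.17%), the Sox gene D (Dichaete) at 366, with ranks of 814, 1170 and 921 in the replicates. The nuclear receptors and ecdysone response genes had none of 21. Cytosolic ribosomal protein genes, a comparison list of ubiquitous genes, had 1 of 63 (1.59%), RpS7 at 168, ranked 7316, 2108 and 6784, near the lower end of the IDR list. Of these 63 genes, 16 had eligible sequence, so 6.25% of those had a summit, against 7.29% over all genes. Eligible sequence surrounded 24 of the bHLH genes, 15 of the neural fate factors and 7 of the nuclear receptor list. Per Mb of it, the replicates had 51.4 ± 8.90, 8.52 ± 2.95 and 0 summits, and 1.13 ± 1.96 for the ribosomal list. Over all genes they had 12.4 ± 0.284 (SD, n = 3). The bHLH value rests on few summits, 6 of the IDR list in 129.7 kb, all nearest to hry or Myc.

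E-boxes were searched within 100 bp of the summit, on both strands. CAGCTG was found at 48 of 455 intergenic summits (10.5%, 8.05 to 13.7%), against 63 of 752 eligible windows 1000 bp away (8.38%, 6.60 to 10.6%). The ratio of 1.26 did not pass (Fisher's exact test, p = 0.218, adjusted p = 0.547 over 10 E-boxes; range of adjusted p over the alternatives 0.153 to 0.794). In the replicates' own lists CAGCTG was at 11.8%, 12.5% and 12.2% of intergenic summits, against 8.49%, 8.91% and 9.34% of their flanks, a ratio of 1.37 ± 0.0530 (SD, n = 3). The ratio was above 1 in all 3 replicates. Distal summits inside genes held it more often against their own flanks, at 16.2% against 8.0% (ratio 2.03, Fisher's exact test p = 4.73e-11), and the difference between the 2 ratios was not tested. Among intergenic summits, CAGCTG stood at 13.8% of the strongest 152, 12.5% of the middle 152 and 5.30% of the weakest 151.

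Compared directly, intergenic summits held CAGCTG less often than in-gene distal summits, 10.5% against 171 of 1053 (16.2%, 14.1 to 18.6%), a ratio of 0.650 (Fisher's exact test, adjusted p = 0.0407). The replicates' lists gave 12.2 ± 0.377% and 15.8 ± 1.29%, a ratio of 0.775 ± 0.0518, below 1 in all 3 (SD, n = 3). Limited to summits matched in both remaining replicates, the call was lost whichever replicate was left out (0.807 without replicate 1, 0.838 without replicate 2 and 0.767 without replicate 3; Fisher's exact test, adjusted p 0.723 to 0.853). It was lost as well in the stronger part of the list (0.772, Fisher's exact test, adjusted p = 0.788), with a distance of 5000 bp (0.714, adjusted p = 0.302) and without the crowded intervals (0.648, adjusted p = 0.109, an alternative chosen after seeing the data). Against all 3312 other summits the share was 10.5% against 15.8% (ratio 0.669, Fisher's exact test, adjusted p = 0.0331), and this call too was lost when each replicate was left out in turn (0.831 to 0.922). The window's GC share had medians of 37.8% at intergenic summits, 36.8% at in-gene summits and 40.8% in the flanks of intergenic summits. CAGCTG was at 3.06% of intergenic summits at low GC and 18.1% at high GC. The comparisons with flanks, for CAGCTG and for every other word, were not split by GC. Around the summit, CAGCTG occurred 0.879 times per kb within 20 bp (exact Poisson interval 0.502 to 1.43) and 0.423 times at 400 to 600 bp in the intergenic class. The in-gene class had 1.61 (1.25 to 2.05) and 0.430.

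**Figure D5:**
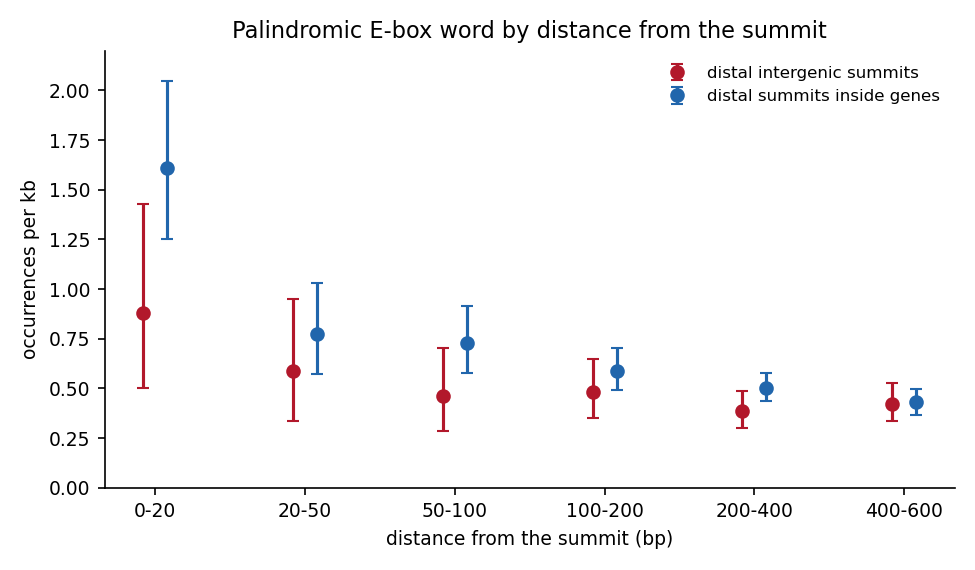
Occurrences of CAGCTG per kb by distance from the summit, for distal intergenic summits and for distal summits inside genes, with exact Poisson 95% intervals. Within 20 bp the intergenic value is 0.879 and the in-gene value 1.61; at 400 to 600 bp they are 0.423 and 0.430.

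Any E-box was present at 288 of 455 intergenic summits (63.3%), 739 of 1053 in-gene summits (70.2%) and 505 of 752 flanks (67.2%). None of the other E-boxes passed against flanks. CATATG stood at 8.57% against 6.91% in flanks, and CAATTG at 5.71% against 9.44% (ratio 0.605, Fisher's exact test, unadjusted p = 0.0217, adjusted p = 0.217). Against in-gene summits CAATTG was lower, 5.71% against 9.78% (ratio 0.584, Fisher's exact test, adjusted p = 0.0451), at a ratio of 0.605 ± 0.0291 in the replicates. Without replicate 1, 2 or 3 its ratio was 0.606, 0.530 or 0.528, with adjusted p of 0.166 to 0.585 by Fisher's exact test. Of the other alternatives, the call passed with a distance of 1000 bp (0.596) and with 1 summit per interval (0.586) and was lost in the rest.

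Of 19 words of other factors, none passed against flanks or against in-gene summits. By Fisher's exact test against flanks, 4 of the 29 words had an unadjusted p under 0.05 and 0 passed. The Fox word TAAACA was at 101 intergenic summits (22.2%), against 16.6% of flanks (ratio 1.34, Fisher's exact test, adjusted p = 0.290) and 29.1% of in-gene summits (ratio 0.764, adjusted p = 0.124). The replicates gave 21.6 ± 0.108% against 29.6 ± 1.38% in genes, a ratio below 1 in all 3 (SD, n = 3). The ratio to in-gene summits passed Fisher's exact test with a window of 50 bp (0.603, adjusted p = 0.00263) and with distances of 1000 and 5000 bp (0.754 and 0.678, adjusted p 0.0253 and 0.0391). It missed the threshold in the other alternatives. When each replicate was left out, the ratio was 0.719 to 0.797 (Fisher's exact test, adjusted p 0.180 to 0.478). GAGAGAG, the word of GAGA factor, was at 3.30% of intergenic summits, against 3.46% of flanks and 6.79% of all other summits (ratio 0.485, Fisher's exact test, adjusted p = 0.0544). In-gene summits, which share the distance rule, held it at 4.46% (ratio 0.739, Fisher's exact test, adjusted p = 0.780). The ratio to all other summits was below 1 in all 3 replicates (0.523 ± 0.0684, SD, n = 3). By Fisher's exact test it passed with a window of 250 bp (0.485, adjusted p = 5.20e-07), with a distance of 1000 bp (0.515, adjusted p = 0.0268) and without replicate 3 (0.333, adjusted p = 0.0490). Against flanks the IDR list and the replicates differed in direction, with a ratio of 0.954 in the IDR list and 1.54 ± 0.113 in the replicates' own lists, above 1 in all 3. The promoter word TATCGATA (DRE) was at 0.440% of intergenic summits and 1.75% of all other summits (Fisher's exact test, adjusted p = 0.201). All other summits include those near promoters. Of the 1053 in-gene summits, 0 held it (Fisher's exact test, adjusted p = 0.345). A part of the CTCF insulator motif, AGGNGGCGC, was at 7 intergenic summits (1.54%), 0.399% of flanks and 0.570% of in-gene summits (adjusted p 0.301 and 0.344). The Mef2 motif, of the muscle factor that acts with MyoD proteins, was at 7.91% of intergenic summits, 8.11% of flanks and 9.02% of in-gene summits. The homeodomain word TAATTA was at 15.6%, 13.2% and 14.2% of the same classes. A match is a description of the sequence and not of binding by the factor.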

How the data were processed

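Sonicated chromatin of 200 to 800 bp from whole embryos was immunoprecipitated in 3 biological replicates of 1 group. The description names an anti-GFP antibody and the antibody label names nau; the description was followed. The age label is implausible, so 4 to 24 h was taken from the source name. The authors deposited region lists on dm6, made with a control per the read-me files: 30000 candidates for each replicate and for the pooled replicates, and 3767 regions after IDR. All 3767 were the strongest of the pooled list. Signal values per region are as deposited by the authors, on a scale that is not stated, and pooled values were not tested against replicate values. The deposited summit distance, a further column, was added to the region's start. The sources used here name no aligner, caller, IDR threshold or read depth. Lists on dm3 were not used.

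Annotation was Ensembl release 115 (BDGP6.54, 13945 protein-coding genes on 6 arms) with the RefSeq Release 6 genome. Repeated intervals with several summits accounted for 28 entries. Each replicate's strongest 3767 regions gave the replicate error, which measures the spread between these samples. Summits within 100 bp were matched. Words were counted within 100 bp of summits and compared by two-sided Fisher's exact tests, with p-values adjusted by Benjamini-Hochberg separately for 10 E-boxes and for 19 words of other factors. Flanks lay 1000 bp away, met the rule and had no summit within 300 bp. The test code was tested on simulated data. Of the list names, 5 were matched through other symbols. The members, the gene lists and the words were chosen with earlier results of these data known. Named genes bordered the 20 strongest members or the 5 fullest intervals, were up to 4 per list by their strongest member, or were non-coding genes within 500 bp of the 50 strongest. The microRNA genes, the Hox genes, oc and the farthest summit were named after their values were seen. After the third fullest interval, 3 intervals tie at 8 summits; the tie was broken by the strongest summit, and Ids to sty was named after its values were seen. Of the 5 so chosen, 1 is not reported here. The alternatives changed the distance rule, the window, the flank distance, the GC range, the strength, the matching and the replicates in which a match was required. Regions were not called again without a replicate. Tests ran in scipy 1.17.1 under Python 3.11.15, tables in pandas 2.3.3 with numpy 2.4.6, and plots in matplotlib 3.10.9.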

Additional observations from a re-analysis of the deposited data

How the results depend on the processing

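No paired analysis was possible because all samples belong to 1 group. Of 262 alternative values, those of the main comparisons kept their side in 58 cases, moved in 29, lost a call in 17 and turned direction in 5; those of single words kept it in 122, lost a call in 10, gained one in 11 and turned direction in 10. The count of members was 288 with a distance of 5000 bp, 222 in the stronger part of the list and 268 to 279 when each replicate was left out. Leaving a replicate out kept only the IDR summits matched in both others, a stricter filter on the same pooled list. The ratio to in-gene summits of the share in the stronger part was 0.997 with a distance of 5000 bp and 0.972 to 1.05 when each replicate was left out. That of the share matched in all 3 replicates was 0.977 with a distance of 5000 bp, 0.984 in the stronger part and 0.957 with the 5000 strongest regions of each replicate.

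For CAGCTG, the ratio to in-gene summits and that to all other summits both missed the threshold with a distance of 5000 bp (0.714 and 0.695), in the stronger part (0.772 and 0.924), with a window of 50 bp (0.652 and 0.757), at low GC (0.427 and 0.384), without the crowded intervals (0.648 and 0.668, chosen after seeing the data) and when each replicate was left out (0.767 to 0.838 and 0.831 to 0.922). The ratio to all other summits also missed it at high GC (0.745). The window of 50 bp kept all 455 summits, and the other alternatives named here hold fewer. Why the threshold was missed was not tested.

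The words that passed against flanks numbered 2 with a window of 250 bp. Against in-gene summits 1 passed with a distance of 5000 bp, with windows of 50 and 250 bp and at high GC, and 0 in the stronger part, at low GC, without the crowded intervals and when each replicate was left out (0 to 0). Against all other summits 3 passed with a distance of 1000 bp, 8 with a window of 250 bp, 0 in the stronger part, with a window of 50 bp, at low GC, at high GC and without the crowded intervals, and 0 to 1 when each replicate was left out. These are counts by Fisher's exact test; as reported, 4, 4 and 6 words had an unadjusted p under 0.05 against flanks, in-gene and all other summits.

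The GAGA ratio to flanks turned above 1 with distances of 1000 and 5000 bp (1.08 and 1.07), in the stronger part (1.01), with windows of 50 and 250 bp (1.06 and 1.43), with flanks 2000 bp away (3.29) and without the crowded intervals (1.04). The DRE ratio to flanks turned below 1 with a distance of 5000 bp (0.859), with flanks 2000 bp away (0.614) and without the crowded intervals (0.820). Another summit lay within 2 kb of 33.8% of members and within 10 kb of 71.0%. List genes with a summit numbered 15 with a distance of 5000 bp and 45 when genes bordering the interval were counted. Read depth is unknown, which limits what an unmatched weak summit shows.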
